A study of Macaca fascicularis with 9 samples.

Results

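RASGRP1, SLC16A4, TNP2, PRSS48, ASB14, SLC10A1, KRT23 and KRT20 are 8 of the 29128 features counted in thalamic nuclei of female cynomolgus monkeys, sorted by a DNA stain and sequenced nucleus by nucleus. They were chosen because earlier results of these same data showed them lower after OTV:MALAT1 than after saline in several cell types. That contrast is therefore given for them as a description, and its fitted values and calls support nothing. All 8 were found in the deposited matrix by gene symbol. The 9 animals fell into 3 groups of 3, and the animal was the replicate. Control animals received 4 biweekly saline injections into a vein. Animals of the ASO group were given an antisense oligonucleotide (ASO), a short synthetic strand that pairs with its target RNA, here MALAT1, as 1 intrathecal dose of 4 mg. In the OTV group 4 biweekly intravenous doses of OTV:MALAT1 were given at 30 mpk. OTV stands for a transport vehicle whose protein carrier binds the transferrin receptor and is joined to the oligonucleotide. The last dose preceded tissue collection by 2 weeks. Carrier, route, dose and number of doses differed together between the ASO and OTV groups, so their parts cannot be told apart, and a group given the carrier without an oligonucleotide was not analysed here. The sources used here do not give the animals' ages.

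Apart from the keratins KRT23 and KRT20, the 8 genes belong to different families. SLC10A1 encodes the sodium-coupled bile acid transporter of hepatocytes, and SLC16A4 a member of the monocarboxylate transporter family. RASGRP1 is an exchange factor that loads Ras with GTP in response to diacylglycerol and calcium, best known in T cells and also present in forebrain neurons. ASB14 belongs to the ankyrin repeat and SOCS box proteins, which bring substrates to cullin ubiquitin ligases, and PRSS48 to the trypsin-like serine proteases. TNP2 is a transition protein that packs DNA in spermatids while histones give way to protamines. KRT23 and KRT20 are type I keratins, filament proteins of epithelia, and KRT20 is a familiar marker of intestinal epithelium. Reads of a longer transcript that overlaps such a gene may be assigned to it, so the genes around each member are described as well.

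The targeted RNA, MALAT1, took 5.38% to 6.36% of UMIs in the saline animals, 4.15% to 5.60% in the ASO animals, where replicate 3 lay within the saline range, and 3.12% to 3.80% in the OTV animals. The matrix held 79994 nuclei. The saline animals contributed 19981249 to 87406189 UMIs (unique molecular identifiers, which mark captured RNA molecules) each, the ASO animals 55628940 to 98850459 and the OTV animals 22520638 to 63553435. Median UMIs per nucleus were 4741.5 to 7071.5 in saline, 5158 to 7791 in ASO and 2579 to 6108 in OTV. Of 79232 distinct barcodes, 760 (0.959%) occurred in more than 1 library. Saline replicate 3 stood apart in its make-up, with 527 neurons and 1074 oligodendrocytes among 2956 nuclei. Markers of striatal neurons summed to 66.0 to 3140 CPM, a gene's counts scaled to a common library total, in saline, 23.9 to 549 in ASO and 52.3 to 86.8 in OTV animals, against 797 to 1970, 591 to 1030 and 1160 to 1390 for the thalamic list. Cell types and the 17 clusters are the authors' own, and in pooled saline nuclei the marker list of each of the 5 named types was highest in that type. The oligodendrocyte list was at 6330 CPM in oligodendrocytes, the list for oligodendrocyte precursor cells (OPCs) at 7480 CPM in OPCs, the myeloid list at 5890, the astrocyte list at 9730 and the neuronal list at 3360 CPM. The thalamic list was at 7100 CPM in astrocytes against 2020 CPM in neurons, so it does not mark neurons alone. Myeloid nuclei also held the astrocyte list, at 2020 CPM.

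In the sums over all nuclei, each of the 8 genes was lower in every OTV animal than in every saline animal and every ASO animal. Of all 21854 tested genes, 22.3% had that order against saline and 26.5% against ASO. The OTV mean was 22.8% of the saline mean for SLC16A4, 18.8% for RASGRP1, 18.4% for TNP2, 17.9% for ASB14, 10.7% for SLC10A1, 10.4% for KRT20, 10.2% for PRSS48 and 6.04% for KRT23. SLC10A1, KRT20 and KRT23 rested on 69, 26 and 20 UMIs in the OTV animals. The genes were chosen on this fall, so nothing is read from the differences in its size. In the edgeR fit, all 8 of the 8 tested were lower in OTV than in saline, where 9.94% of 21854 tested genes were called lower. The genes were picked from that contrast, so nothing is read from this count. The median log2 fold change of the 8 was -2.74, against -0.0606 over all tested genes.

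**Figure D1:**
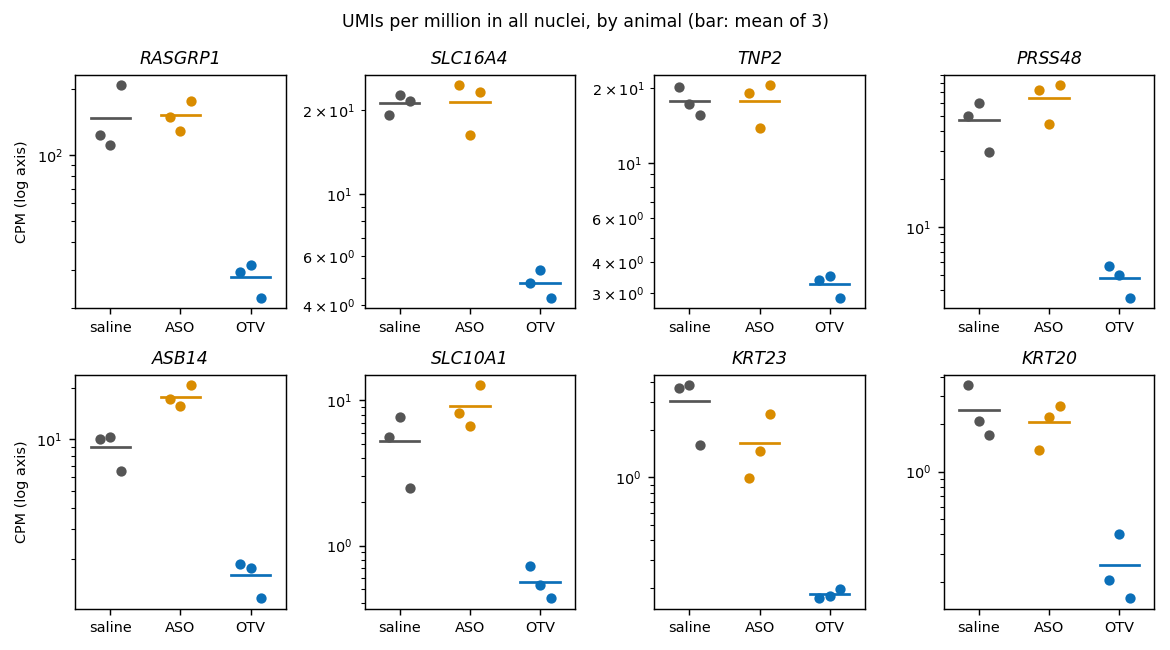
CPM (log axes that differ between panels) of the 8 genes over all nuclei, with 1 point per animal and a bar at the mean of the 3 animals of each group. In every panel the 3 OTV points lie below the saline and ASO points, and for ASB14 the ASO points, between 15.58 and 20.67, lie above the saline points, between 6.556 and 10.33.

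Of the transporters, SLC16A4 stood at 19.21, 22.66 and 21.57 CPM in saline replicates 1, 2 and 3 and at 24.59, 16.26 and 23.17 CPM in the ASO animals. The OTV animals had 4.815, 5.373 and 4.259 CPM. Saline and ASO animals overlapped, and the highest OTV value was below the lowest of both. SLC10A1, the bile acid transporter, stood at 5.621, 7.677 and 2.502 CPM in saline, 8.226, 6.717 and 12.69 CPM in ASO and 0.7238, 0.5328 and 0.4338 CPM in OTV animals. Saline replicate 3 was the lowest control animal for this gene and was still above every OTV animal. The log2 fold change of OTV against ASO was -2.03 ± 0.18 (SE) for SLC16A4 (edgeR adjusted p = 0.000708) and -3.86 ± 0.47 for SLC10A1 (edgeR adjusted p = 0.00146).

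RASGRP1, the Ras exchange factor, stood at 123.1, 110.6 and 207.3 CPM in saline, 148.7, 128.6 and 176.1 CPM in ASO and 29.11, 31.57 and 22.32 CPM in OTV animals. The high value belonged to saline replicate 3, the library rich in neurons and striatal markers. Without that library, the edgeR estimate for OTV relative to saline was -1.99 (log2) in place of -2.30. The sums over all nuclei mix cell types in proportions that differ between animals, and the part of this in the group difference was not tested. Within oligodendrocytes, the saline animals lay close together, at 100.5, 95.85 and 106.8 CPM. There the OTV animals had 23.23, 23.43 and 20.81 CPM, and the OTV mean was 22.3% of the saline mean.

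ASB14, the ubiquitin ligase adaptor, differed from the other 7 in its order of groups. Saline animals had 10.07, 10.33 and 6.556 CPM, ASO animals 17.12, 15.58 and 20.67 CPM and OTV animals 1.872, 1.776 and 1.183 CPM. The 3 groups did not overlap, with ASO highest and OTV lowest. Over all tested genes, 10.1% were higher in every ASO animal than in every saline animal. PRSS48, the serine protease, had 50.06, 60.40 and 29.63 CPM in saline, 72.83, 44.33 and 77.68 CPM in ASO and 5.680, 5.018 and 3.588 CPM in OTV animals. Its saline and ASO values overlapped. Against ASO, the OTV log2 fold change was -3.34 ± 0.27 for ASB14 (edgeR adjusted p = 0.000703) and -3.63 ± 0.33 for PRSS48 (edgeR adjusted p = 0.000708).

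TNP2, the spermatid chromatin protein, was counted at 20.16, 17.25 and 15.56 CPM in saline, 19.14, 13.76 and 20.53 CPM in ASO and 3.383, 3.508 and 2.879 CPM in OTV animals. Saline and ASO animals overlapped, and every OTV animal lay below both, an order that the choice of the gene favoured. The keratins had the fewest UMIs of the 8. KRT23 had 3.675, 3.798 and 1.602 CPM in saline, 0.9975, 1.467 and 2.499 CPM in ASO and 0.1731, 0.1776 and 0.1972 CPM in OTV animals, where 20 UMIs in 3 animals carried the value. KRT20 had 3.512, 2.105 and 1.702 CPM in saline, 1.379, 2.226 and 2.607 CPM in ASO and 0.2046, 0.3996 and 0.1577 CPM in OTV animals, from 26 UMIs. For both keratins the ASO animals overlapped the saline animals.

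The ASO group gave the comparison of the same target by another route. In all nuclei, 8 of 8 members were called lower in OTV than in ASO by edgeR (adjusted p 0.000703 to 0.00429), against 11.1% of all tested genes. This contrast shares the OTV animals that chose the members, so nothing is read from this count or from the members' adjusted p against ASO. In ASO against saline, edgeR called 0 of 8, against 0.032% of all tested genes, with 1 of 8 at an unadjusted p under 0.05, where 9.51% of genes were, and 1 of 8 by DESeq2, where 1.68% were. The median log2 fold change of the 8 was 0.01, against -0.0121 over all tested genes. ASB14 was the 1 gene called by DESeq2. Its log2 fold change of ASO against saline was 0.96 ± 0.25 (edgeR adjusted p = 0.347, DESeq2 adjusted p = 0.0102), and over all alternatives the adjusted p ranged from 0.0102 to 0.696.

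By cell type, the members were again compared in sums per animal. Lower values in these types against saline were what chose the genes, so nothing is read from the counts against saline in any type, nor from how they held when an animal was left out. The counts against ASO use the same OTV values and are likewise given as a description. In oligodendrocytes edgeR called 8 of 8 lower in OTV than in saline, against 11.7% of tested genes, and 8 of 8 lower than in ASO, against 15.1%. In OPCs it called 8 of 8 in both, against 11.9% and 14.4%, and leaving out 1 animal left at least 6. With the compared animals alone, KRT20 did not pass the filter there in either contrast, nor KRT23 against ASO. Without OTV replicate 1, KRT20 was no longer called against ASO in oligodendrocytes (edgeR adjusted p = 0.058). With nuclei thinned to 1000 UMIs it was not called there either, at -1.84 (edgeR adjusted p = 0.0911) in place of -2.67. The OTV values of the 8 lay below every saline and every ASO value in both types. In pooled OPCs the oligodendrocyte list stood at 521 CPM in saline, 878 in ASO and 889 in OTV, and its part in the OPC values was not tested. Among all tested genes the shares in the order of the members were 20.5% and 27.3% in oligodendrocytes and 22.3% and 28.1% in OPCs.

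In myeloid nuclei, the microglia and related cells, 7 members could be tested. They were called 7 of 7 lower against saline, a count set by the choice of the genes, where 7.26% of genes were, and 7 of 7 lower against ASO, where 11.1% were. Without OTV replicate 1 the first count was 4. The count against ASO was 5 to 7 when 1 animal was left out, and KRT23 kept its call against ASO in 7 of 12 alternatives. Every OTV animal lay below every saline and every ASO animal for these 7, an order held by 16.0% and 21.7% of tested genes. SLC10A1, KRT23 and KRT20 rested there on 1 UMI each in the OTV group, against 65, 47 and 57 UMIs in the saline group and 93, 36 and 72 UMIs in the ASO group. SLC10A1 and KRT23 did not pass the filter with saline and OTV animals alone, nor KRT23 with ASO and OTV animals alone. Markers of other types differed between the groups in pooled myeloid nuclei. The astrocyte list was at 2020 CPM in saline, 972 in ASO and 1380 in OTV, the oligodendrocyte list at 751, 1170 and 1440 CPM, and the endothelial list at 584, 848 and 363 CPM. Their part in the members' myeloid values was not tested. In astrocytes 7 of 8 were called lower against saline, again a count set by that choice, where 9.12% of genes were, and 8 of 8 against ASO, where 12.5% were. ASB14, SLC10A1, KRT23 and KRT20 had 2, 1, 3 and 2 OTV UMIs there. They did not pass the filter with saline and OTV animals alone, nor the keratins with ASO and OTV animals alone. Such genes enter the fit through the groups where they are high, so nothing is read from their calls. Against saline the count was 3 without OTV replicate 1, 3 without OTV replicate 3 and 4 without saline replicate 2. Against ASO it was 5 without OTV replicate 1, 4 without OTV replicate 3 and 5 without ASO replicate 3. All 8 kept every OTV animal below every saline and every ASO animal there, as did 20.3% and 24.9% of tested genes. The oligodendrocyte list stood at 374 CPM in pooled saline astrocytes, 519 in ASO and 659 in OTV, and the astrocyte list itself at 9730, 9900 and 7340 CPM. The part of either in the members' values was not tested.

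RASGRP1 was the member not called in astrocytes in OTV against saline, at a log2 fold change of -1.25 ± 0.45 (edgeR adjusted p = 0.0947). Against ASO it was called, at -1.49 ± 0.45 (edgeR adjusted p = 0.0454), but the call was kept in only 4 of 15 alternatives. OTV replicates 1, 2 and 3 had 41.62, 93.16 and 17.63 CPM there, and the saline animals 116.7, 119.1 and 113.7 CPM. The second OTV animal lay just below the controls. OTV replicate 2 was the highest OTV animal for SLC16A4 as well, which had 6.979, 23.07 and 7.226 CPM in OTV astrocytes. Against saline, the RASGRP1 value was -1.87 without OTV replicate 2 (edgeR adjusted p = 0.0119), and leaving out 1 animal moved it as far as -0.80. Over all alternatives that adjusted p ranged from 0.00529 to 0.21.

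Neurons numbered 17 or 18 in 2 ASO animals and 23 in saline replicate 2. There 4 members could be tested. RASGRP1 and TNP2 were called lower in OTV against saline, where 4.3% of genes were, and against ASO, where 3.19% were. Both counts of 2 were 0 without OTV replicate 1, OTV replicate 3 or saline replicate 1. The count against saline was 1 without OTV replicate 2 or saline replicate 3, and that against ASO was 0 without OTV replicate 2, ASO replicate 2 or ASO replicate 3. The neurons of the groups were not alike, since striatal markers summed to 5120 CPM in saline neurons, 4650 CPM in ASO neurons and 398 CPM in OTV neurons, and RASGRP1 averaged 215 ± 90.7 (SD, n = 3), 167 ± 88.3 and 28.0 ± 14.4 CPM. The part of the striatal neurons in this difference was not tested.

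**Figure D2:**
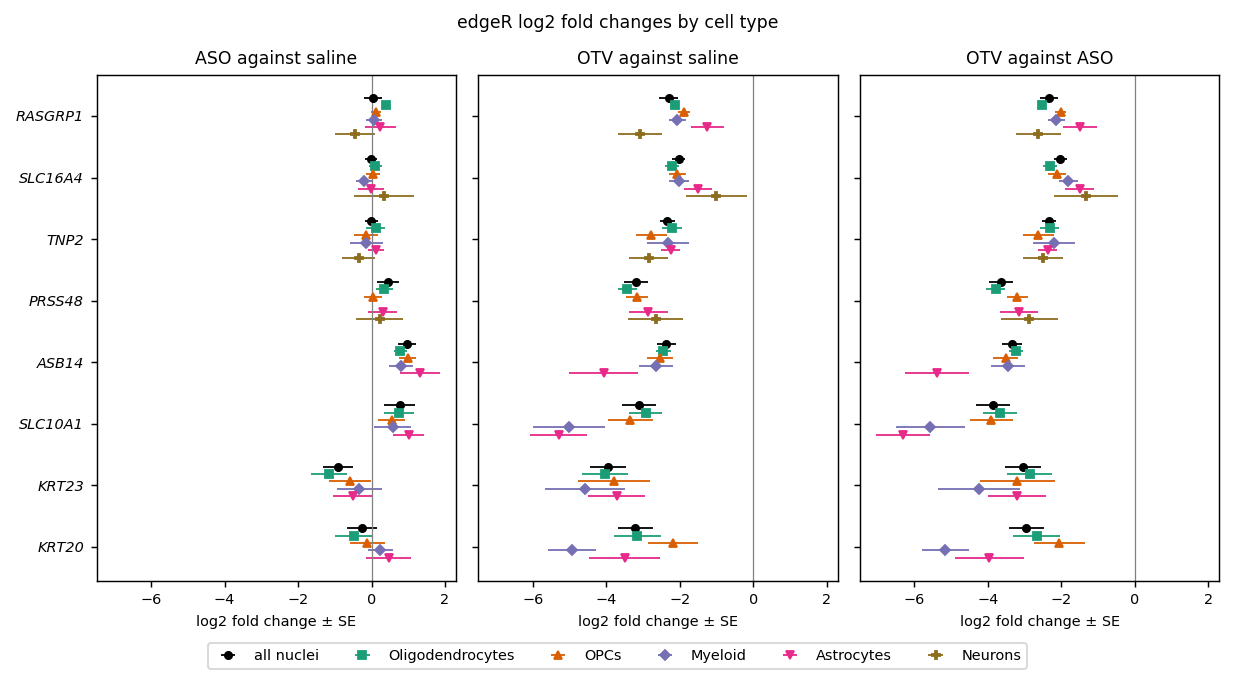
edgeR log2 fold changes with standard errors, in panels for the 3 pairs of groups, 1 row per gene and 1 symbol per cell type, with fits over 9 animals. The panel of ASO against saline scatters around 0 while both OTV panels lie left of 0, and the SLC10A1, KRT23, KRT20 and ASB14 points farthest to the left in myeloid nuclei and astrocytes come from 1 to 8 UMIs in the OTV group.

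In the ASO animals ASB14 lay above saline without overlap in oligodendrocytes, OPCs and astrocytes, where 11.6%, 11.7% and 8.17% of tested genes did so. Its ASO mean was 18.5 ± 2.40 (SD, n = 3) against 10.4 ± 1.18 CPM in oligodendrocytes, 12.5 ± 1.61 against 6.15 ± 0.765 CPM in OPCs and 12.5 ± 3.45 against 4.66 ± 2.08 CPM in astrocytes. No call was made by edgeR, with log2 fold changes of 0.78 ± 0.18 in oligodendrocytes (adjusted p = 0.119), 0.98 ± 0.24 in OPCs (adjusted p = 0.144), 0.81 ± 0.33 in myeloid nuclei (adjusted p = 0.425) and 1.31 ± 0.55 in astrocytes (adjusted p = 0.788). RASGRP1 in oligodendrocytes had a log2 fold change of 0.40 ± 0.10 (edgeR adjusted p = 0.147), with ASO animals at 137.0, 124.2 and 150.9 CPM, all above the saline animals. SLC10A1 in astrocytes was also higher in every ASO animal, at 12.5 ± 2.86 CPM against 5.56 ± 2.87 in saline. edgeR called 0 members in ASO against saline in any type, with background shares of 0.394% in oligodendrocytes, 0.262% in OPCs, 0.197% in myeloid nuclei, 0.0147% in astrocytes and 0.0% in neurons. Unadjusted p was under 0.05 for 3, 1, 1, 2 and 0 of them in these types, and for 11.9%, 9.61%, 10.3%, 6.1% and 2.47% of all tested genes. DESeq2 called 2 in oligodendrocytes, RASGRP1 (adjusted p = 0.0369) and ASB14 (adjusted p = 0.00281), where it called 3.31% of all genes. It called 0 in the other types, against 1.44% in OPCs, 1.54% in myeloid nuclei, 0.514% in astrocytes and 0.127% in neurons.

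The members differed in where they were counted. In saline, PRSS48 averaged 106 ± 15.5 CPM (SD, n = 3) in OPCs, 53.0 ± 9.31 in oligodendrocytes, 17.8 ± 13.5 in neurons, 9.88 ± 3.43 in astrocytes and 1.95 ± 1.38 in myeloid nuclei. Neurons and astrocytes overlapped in that order. RASGRP1 was broader, at 215 ± 90.7 CPM in neurons, 194 ± 22.8 in myeloid nuclei, 184 ± 17.5 in OPCs, 116 ± 2.71 in astrocytes and 101 ± 5.50 in oligodendrocytes. Its first 3 types overlapped, and the lowest neuron value, 118 CPM, lay within the range of the astrocytes. TNP2 was highest in astrocytes, at 29.8 ± 5.57 CPM, overlapping OPCs at 24.1 ± 4.83 and neurons at 22.7 ± 10.8, followed by oligodendrocytes at 14.3 ± 5.17, which overlapped neurons, and myeloid nuclei at 10.5 ± 3.12.

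SLC16A4 ran from 32.4 ± 8.71 CPM in neurons, 31.8 ± 6.97 in astrocytes and 29.4 ± 4.26 in myeloid nuclei to 22.8 ± 3.95 in OPCs and 17.2 ± 2.36 in oligodendrocytes, each neighbour in the order overlapping the next. ASB14 had 10.4 ± 1.18 CPM in oligodendrocytes, 8.88 ± 6.19 in neurons and 8.35 ± 2.07 in myeloid nuclei against 6.15 ± 0.765 in OPCs and 4.66 ± 2.08 in astrocytes, and each neighbour in that order overlapped the next. SLC10A1 lay between 3.55 ± 1.67 in neurons and 6.33 ± 4.95 CPM in myeloid nuclei and showed no separation of types beyond its spread. KRT23 lay between 2.25 ± 0.982 in neurons and 5.18 ± 1.64 CPM in astrocytes, the neurons of each saline animal lying below the astrocytes of all 3. KRT20 averaged 6.35 ± 1.80 CPM in myeloid nuclei and 1.20 ± 1.49 to 3.03 ± 0.970 CPM in the other named types, with every saline animal's myeloid value above its values in the other named types.

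PRSS48 in myeloid nuclei was an exception to the lower values after OTV. Saline animals had 0.5596, 1.966 and 3.320 CPM and OTV animals 0.5242, 1.790 and 0.000 CPM, from 14 and 4 UMIs, so the groups overlapped and the gene was too sparse there for the fit. SLC16A4 in neurons overlapped as well, with 31.49, 41.47 and 24.11 CPM in saline and 35.96, 5.881 and 9.737 CPM in OTV animals. KRT23 was at 0 UMIs in OTV neurons, where 3 counts over the group would be 1.05 CPM, so that its pooled saline value was at least 1.64-fold higher, and KRT20 at 0 UMIs likewise at least 1.5-fold. KRT20 overlapped there too, since saline neurons had 2.863, 0 and 0.7382 CPM.

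Within the authors' clusters the same comparison was made where each saline and OTV animal had at least 20 nuclei, which left 11 of 17. RASGRP1, TNP2 and ASB14 were lower in every OTV animal than in every saline animal in 11 of 11 clusters. SLC16A4 was so in 9, with neuron cluster 11 and OPC cluster 13 as exceptions, and PRSS48 in 9, with the myeloid clusters 7 and 9 as exceptions. SLC10A1 was so in 8 and each keratin in 7 of 11. Over all 21854 genes tested in all nuclei, 12.9% of gene and cluster pairs had that order, from 8.62% in cluster 9 to 18.5% in cluster 4. The rule used this contrast, so nothing is read from the members' counts. Among these 11 clusters PRSS48 ranged from 1.38 and 1.87 CPM in pooled saline nuclei of myeloid clusters 9 and 7 to 113 CPM in OPC cluster 4.

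Shares of nuclei were compared after every nucleus had been thinned to 1000 UMIs, since median depth differed between libraries. No deposited nucleus was shallower, so none was left out. The share of nuclei with a RASGRP1 count was 12% ± 2.26 (SD, n = 3) in saline, 13.3% ± 1.79 in ASO and 2.58% ± 0.369 in OTV, and unthinned 47.9%, 53.4% and 12%. For SLC16A4 the thinned shares were 1.95%, 2.02% and 0.480%, and for TNP2 1.63%, 1.65% and 0.296%. OTV animals lay below saline and ASO animals for all 3 genes. The choice of the genes favoured this order, and its share over all genes was not computed at this depth, so nothing is read from it.

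PRSS48 was found in 4.46% ± 1.33 of saline nuclei, 6.36% ± 1.86 of ASO nuclei and 0.415% ± 0.0424 of OTV nuclei at this depth. ASB14 was found in 0.845%, 1.72% and 0.155%, and SLC10A1 in 0.596%, 0.950% and 0.0390%. KRT23 was found in 0.302%, 0.206% and 0.0112%, and KRT20 in 0.311%, 0.197% and 0.0365%. The OTV share was 24.6% of the saline share for SLC16A4, 21.5% for RASGRP1, 18.4% for ASB14, 18.2% for TNP2, 11.7% for KRT20, 9.29% for PRSS48, 6.54% for SLC10A1 and 3.71% for KRT23. CPM over thinned nuclei gave nearly the same percentages, from 3.71% for KRT23 to 23.7% for SLC16A4.

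Free RNA in the droplets can give a nucleus a count of a gene it does not express. At matched depth PRSS48 was found in 9.38% of saline OPC nuclei and in 0.0435% of saline myeloid nuclei. The low myeloid share comes from these same data, so it is no independent measure of free RNA. The part of free RNA in the low shares of any member was not tested. Most nuclei with a count had 1 UMI, from 56.1% of RASGRP1-positive to 94.8% of KRT23-positive saline nuclei.

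**Figure D3:**
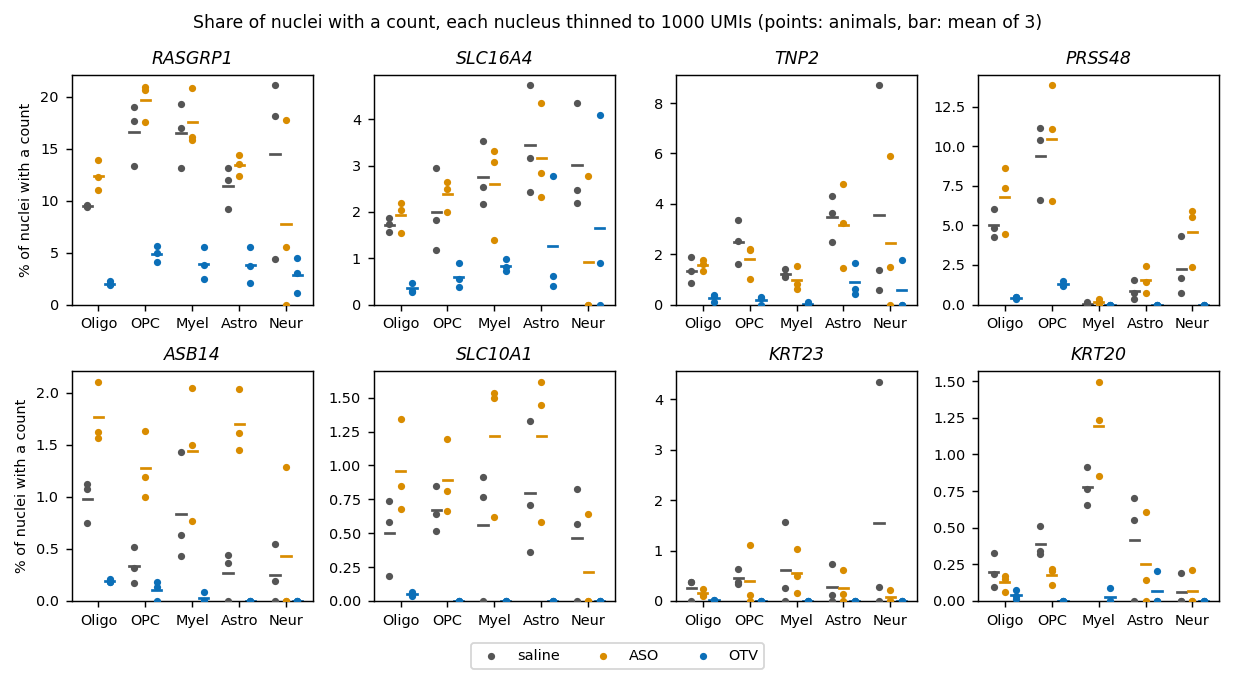
Percentage of nuclei with a count of each gene after thinning to 1000 UMIs, by cell type, with 1 point per animal and a bar at the group mean. PRSS48 reaches 13.83% of OPC nuclei and stays at or below 0.3407% of myeloid nuclei, while the OTV points lie at the bottom of most columns and several are at 0.

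Several members are known from other organs, so markers of those organs were read in the same sums. The hepatocyte list, 4 of 5 genes in the matrix, summed to 143 to 503 CPM in saline, 437 to 731 in ASO and 397 to 639 in OTV animals, nearly all of it TF, which oligodendrocytes also make. ALB, the defining hepatocyte gene, was at 0.0577 CPM in saline, 0.0348 in ASO and 0.0917 in OTV. FGB, also on the list, averaged 5.57 CPM in saline, 5.68 in ASO and 1.22 in OTV, and SERPINA1 1.33, 1.83 and 3.33 CPM. The spermatid list, 3 of 5 genes, summed to 4.29 to 8.28, 3.09 to 5.15 and 1.94 to 2.80 CPM, most of it PRM2, a neighbour of TNP2. The intestinal list, 6 of 6 genes, summed to 2.60 to 3.13, 2.45 to 3.92 and 1.81 to 3.31 CPM, and the T cell list to 14.9 to 21.5, 15.4 to 20.6 and 18.3 to 20.4 CPM. None of the listed genes in the matrix was at 0 throughout. The spermatid list was lower in every OTV animal than in every saline animal, and its part in TNP2 was not tested. The T cell, hepatocyte and intestinal lists overlapped between saline and OTV. For the hepatocyte list that overlap is nearly all that of TF and does not speak for FGB, whose part in SLC10A1 was not tested.

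The RefSeq gene table (assembly T2T-MFA8v1.1) placed 43 genes other than members within 200 kb of a member and among the 3 nearest on either side or overlapping it. Of these 20 were matched to the matrix by symbol. The assembly behind the counts is not settled, so the table was used for which genes lie side by side and for nothing else. It placed PRSS48 within SH3D19, ASB14 overlapping APPL1, RASGRP1 overlapping FAM98B and KRT23 within an lncRNA that was not matched. The members KRT23 and KRT20 are also neighbours of each other, within 50 kb. The sources used here do not say whether the counting used strand or how it treated reads in overlapping genes, so reads of a member and of its partner may be exchanged and each such value is uncertain to that extent.

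Over all nuclei, none of the 3 overlapping genes was called by edgeR in OTV against saline, with 0 of 3 at an unadjusted p under 0.05. Of 21854 tested genes, 9.94% were called lower and 5.72% higher, and 6774 had an unadjusted p under 0.05. With only 3 genes, nothing is read from these counts. SH3D19, an SH3 domain adaptor, had 482.5, 488.2 and 372.1 CPM in saline and 446.3, 538.8 and 586.7 CPM in OTV animals, and the groups overlapped. Its log2 fold change after OTV was 0.33 ± 0.16 (edgeR adjusted p = 0.212), beside -3.19 ± 0.32 for PRSS48. APPL1, an endosomal adaptor, had 66.00, 68.12 and 58.71 CPM in saline and 64.84, 70.42 and 64.28 CPM in OTV animals, at 0.15 ± 0.14 (edgeR adjusted p = 0.498), beside -2.37 ± 0.26 for ASB14. Like ASB14, APPL1 was higher in every ASO animal than in every saline animal, at 71.84, 85.46 and 73.56 CPM, with a log2 fold change of 0.26 ± 0.14 (edgeR adjusted p = 0.547), and it was so in oligodendrocytes as well. Among all tested genes, 10.1% had that order over all nuclei and 11.6% in oligodendrocytes. FAM98B, a subunit of the tRNA ligase complex, had 24.43, 22.15 and 19.47 CPM in saline and 18.05, 19.80 and 18.30 CPM in OTV animals, at -0.13 ± 0.15 (edgeR adjusted p = 0.590), beside -2.30 ± 0.25 for RASGRP1.

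Within types 2 of these partners were called against ASO. FAM98B was lower in OTV than in ASO OPCs, at -0.58 ± 0.19 (edgeR adjusted p = 0.0424), and stood at -0.57 ± 0.19 against saline there (edgeR adjusted p = 0.053) and at -0.57 ± 0.22 in astrocytes (edgeR adjusted p = 0.106). SH3D19 was higher in OTV than in ASO myeloid nuclei, at 2.36 ± 0.58 (edgeR adjusted p = 0.0251), and stood at 1.68 ± 0.57 against saline (edgeR adjusted p = 0.0981).

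As a ratio within each library, PRSS48 had 10.4, 12.4 and 7.96 UMIs per 100 UMIs of SH3D19 in saline animals and 13.6, 8.46 and 14.1 in ASO animals. The OTV animals had 1.27, 0.931 and 0.612. ASB14 had 15.3, 15.2 and 11.2 UMIs per 100 of APPL1 in saline, 23.8, 18.2 and 28.1 in ASO and 2.89, 2.52 and 1.84 in OTV animals. Both ratios were lower in every OTV library than in any other. They hold the member counts that chose the genes, so nothing is read from this order.

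Across the 17 clusters in saline, PRSS48 and SH3D19 ran in parallel, with a Pearson r of 0.977 between their log2(CPM + 1) values. The clusters share 3 animals, and the value is a description. SH3D19 was at 841 CPM in OPC cluster 4 with PRSS48 at 113 CPM, and at 25.0 CPM in myeloid cluster 7 with PRSS48 at 1.87 CPM. In OTV nuclei SH3D19 was still at 946 CPM in cluster 4, and PRSS48 was at 12.3 CPM. In myeloid cluster 7 SH3D19 was at 83.9 CPM in OTV nuclei, above saline, and PRSS48 at 0.847 CPM. At matched depth PRSS48 was found in 11.2% of saline OPC nuclei with a SH3D19 count (144 of 1281, Wilson 95% interval 9.63 to 13.1) and in 7.83% of those without (80 of 1022, interval 6.33 to 9.64). These intervals cover counting error within the pooled nuclei. Other pairs ran less closely, at 0.884 for SLC16A4 and RBM15, 0.708 for ASB14 and APPL1, 0.487 for TNP2 and CLEC16A and -0.023 for RASGRP1 and FAM98B.

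**Figure D4:**
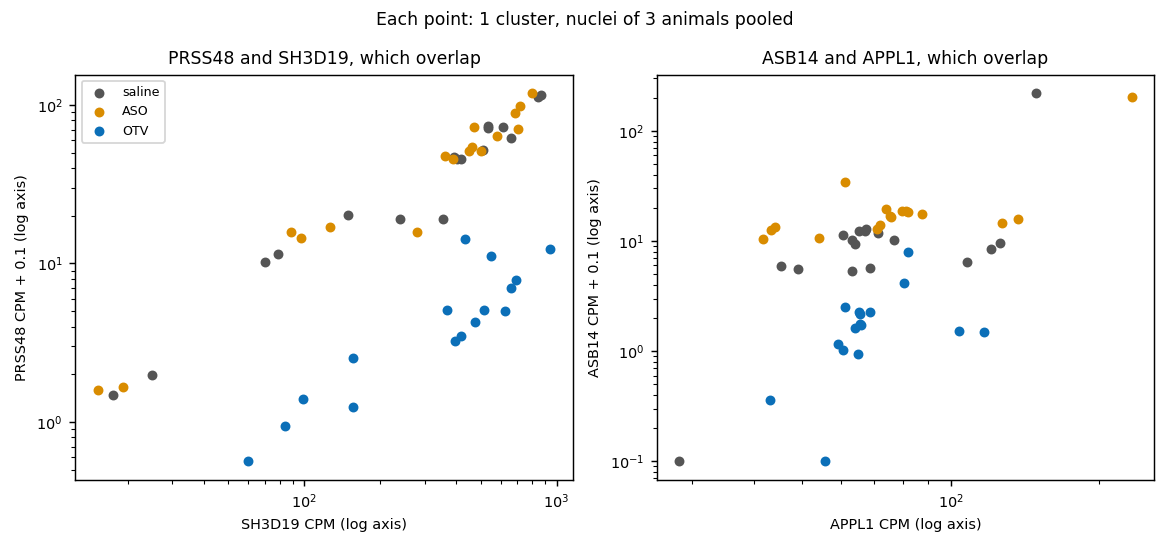
CPM of PRSS48 against SH3D19 and of ASB14 against APPL1 on log axes, 1 point per cluster and group with at least 20 nuclei, the nuclei of 3 animals pooled and 0.1 added to the vertical value. In the left panel the OTV points run below the saline and ASO points at the same SH3D19 level, and in the right panel the 2 points near the top, at 221 and 204 CPM of ASB14, are cluster 16.

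Cluster 16, which the authors left unnamed, set ASB14 apart. In pooled saline nuclei it held 221 CPM of ASB14 and 3500 CPM of DNAH12, a dynein heavy chain of motile cilia that adjoins ASB14, while ASB14 did not exceed 12.8 CPM in the other clusters. Cluster 16 had 41 saline nuclei, 75 ASO nuclei, which all came from ASO replicate 3 at 204.2 CPM of ASB14, and 2 OTV nuclei with 2 UMIs of ASB14. Among the unthinned saline nuclei of the authors' unknown type, ASB14 was found in 30 of 44 with a DNAH12 count (68.2%) and in 2 of 56 without (3.57%). That type joins cluster 16 with cluster 15, whose 59 saline nuclei held 6.36 CPM of ASB14, so the split may restate the clusters. DNAH12 over all nuclei had 20.39, 7.311 and 24.37 CPM in saline and 5.303, 12.34 and 10.17 CPM in OTV animals, which overlapped, at -0.81 ± 0.57 (edgeR adjusted p = 0.368). In astrocytes DNAH12 had 12.49, 18.03 and 21.41 CPM in saline, 87.04, 52.14 and 40.67 CPM in ASO and 7.477, 20.41 and 14.45 CPM in OTV animals. The ASO animals lay above both other groups there, as they did for ASB14, while saline and OTV overlapped for DNAH12. DNAH12 was called lower in OTV than in ASO astrocytes, at -2.08 ± 0.39 (edgeR adjusted p = 0.00571), and stood at 1.75 ± 0.37 in ASO against saline (edgeR adjusted p = 0.258) and at -0.34 ± 0.39 in OTV against saline (edgeR adjusted p = 0.594). The list for ependyma and choroid plexus, with 3 of 4 genes in the matrix (TTR, KL and FOLR1, which mark choroid plexus) and FOXJ1, its gene of ciliated cells, not matched, was mostly TTR and summed to 12.5 to 34.3 CPM in saline, 4.89 to 18.4 in ASO and 1.93 to 3.77 in OTV animals. In pooled OPCs the same markers stood at 60.6 CPM in saline, 64.1 in ASO and 8.55 in OTV, and in pooled oligodendrocytes at 3.96, 2.03 and 1.08 CPM. Their part in ASB14 was not tested.

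Of the 20 matched neighbours, edgeR called 4 lower and 0 higher in OTV against saline, beside 9.94% of all tested genes lower and 5.72% higher, with a median log2 fold change of -0.12 against -0.0606 over all genes. All 4 lay beside TNP2 or the keratins and among the 12 neighbours within 50 kb of a member. After thinning each nucleus to 1000 UMIs, 0 of the 17 that could still be tested were called. KRT12, KRT39 and KRT40 were the 3 too sparse to test, and their OTV means were then 3.91%, 13.8% and 6.06% of the saline means, beside 9.05%, 15.2% and 10.0% unthinned. For PRM2 the percentage was 45.4% thinned and 31.8% unthinned. PRM2, a protamine of sperm chromatin that neighbours TNP2, had 3.784, 7.414 and 6.356 CPM in saline and 1.762, 1.687 and 2.129 CPM in OTV animals. Every OTV animal was lower, at -1.55 ± 0.32 (edgeR adjusted p = 0.0145). PRM2 was not called against ASO over all nuclei, at -0.82 ± 0.31 (edgeR adjusted p = 0.109), nor against saline in the 4 types where it was tested (edgeR adjusted p = 0.0888 in oligodendrocytes, 0.144 in astrocytes, 0.152 in OPCs and 0.616 in myeloid nuclei). The spermatid list, most of it PRM2 over all nuclei, stood at 33.8 CPM in pooled saline astrocytes, 20.9 in ASO and 4.65 in OTV. In the other named types it was at 3.63 to 9.91 CPM in saline and 1.84 to 3.14 CPM in OTV. Around KRT23 and KRT20 the type I keratins KRT12, KRT39 and KRT40 were lower too, at -3.19 ± 0.46 (edgeR adjusted p = 0.00375), -2.67 ± 0.46 (edgeR adjusted p = 0.00692) and -3.04 ± 0.59 (edgeR adjusted p = 0.0116). KRT12 had 1.239, 0.9381 and 0.7507 CPM in saline and 0.1416, 0.0444 and 0.07887 CPM in OTV animals, without overlap.

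Outside the keratin locus, edgeR called 1 of 17 neighbours lower, beside the 9.94% of all genes, and the median log2 fold change was -0.09. For SLC10A1 the splicing factor SRSF5 was at 0.17 ± 0.19 and SUSD6 at -0.09 ± 0.14. For SLC16A4 the RNA-binding protein RBM15 was at 0.07 ± 0.17 and LAMTOR5, a Ragulator subunit, at -0.79 ± 0.37 (edgeR adjusted p = 0.191), while the potassium channel KCNC4 was at 1.24 ± 0.51 (edgeR adjusted p = 0.134). FHIP1A, the nearest matched gene on one side of PRSS48, was at -1.68 ± 0.82 (edgeR adjusted p = 0.2). HESX1, the nearest gene on one side of ASB14, was at 0.34 ± 0.36 (edgeR adjusted p = 0.556). HESX1 was higher in every ASO animal, at 3.682, 3.612 and 4.099 CPM against 2.668, 1.796 and 2.052 CPM in saline (edgeR adjusted p = 0.532). Over all tested genes, 10.1% had that order. IL17RD, farther out on that side, was at -1.06 ± 0.35 (edgeR adjusted p = 0.0722), with 4.655, 5.663 and 10.36 CPM in saline and 2.628, 2.797 and 3.707 CPM in OTV animals, without overlap. In ASO against saline IL17RD stood at -0.39 ± 0.34 (edgeR adjusted p = 0.657). For TNP2 the endosomal protein CLEC16A was at 0.21 ± 0.11, and for RASGRP1 the Ras pathway inhibitor SPRED1 was at -0.11 ± 0.24. By type and against saline, SPRED1 was lower in OPCs, by -0.43 ± 0.13 (edgeR adjusted p = 0.0333), and in myeloid nuclei, by -0.61 ± 0.13 (edgeR adjusted p = 0.0169), and LAMTOR5 in myeloid nuclei, by -1.67 ± 0.40 (edgeR adjusted p = 0.0267). SMOC1, an extracellular matrix protein whose gene lies near SLC10A1, was higher in OPCs, by 0.47 ± 0.14 (edgeR adjusted p = 0.03). Against ASO, LAMTOR5 was lower in oligodendrocytes, by -1.20 ± 0.34 (edgeR adjusted p = 0.0285), and in OPCs, by -1.17 ± 0.35 (edgeR adjusted p = 0.0286). RPS3A, a neighbour of PRSS48, was lower than in ASO by -1.21 ± 0.32 in oligodendrocytes (edgeR adjusted p = 0.023) and -0.86 ± 0.27 in OPCs (edgeR adjusted p = 0.0382). These calls by type were singled out after their values were seen.

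**Figure D5:**
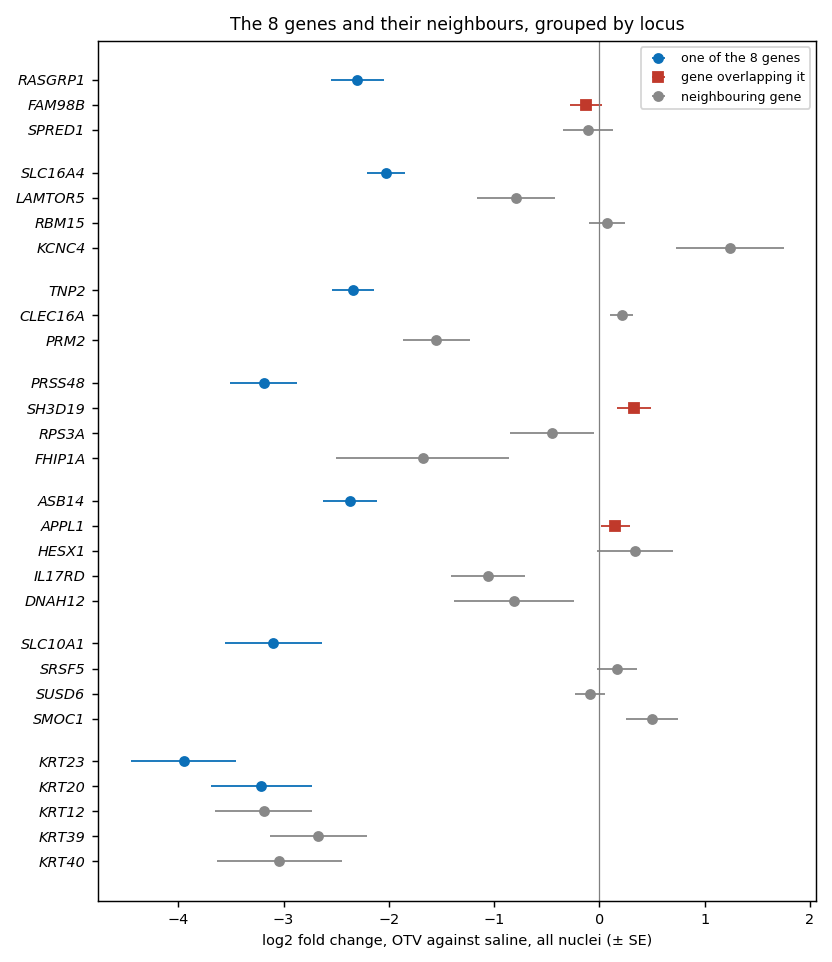
edgeR log2 fold changes after OTV relative to saline over all nuclei, with standard errors, for the 8 genes, the genes that overlap them and their other neighbours, grouped by locus. The overlapping genes lie near 0, between -0.13 and 0.33, whereas the keratin neighbours lie between -3.19 and -2.67.

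Relatives of the members elsewhere in the genome were read as families. Of 96 listed relatives, 76 were in the matrix and 55 could be tested. In OTV against saline edgeR called 12 lower and 2 higher, with a median log2 fold change of -0.39, beside 9.94% of all tested genes lower and 5.72% higher. Without OTV replicate 3, 8 were called in all, and after thinning each nucleus to 1000 UMIs, 4 of 37. The lists include the neighbours KRT12, KRT39, KRT40 and PRM2, which make up 4 of the 12.

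Of 12 monocarboxylate transporters, 3 were lower, namely SLC16A13 at -2.22 ± 0.43 (edgeR adjusted p = 0.0114), SLC16A14 at -1.34 ± 0.33 (edgeR adjusted p = 0.0284) and SLC16A8, named after its value was seen, at -2.32 ± 0.61 (edgeR adjusted p = 0.0351). Of 4 bile acid transporters 1 was lower, SLC10A4 at -1.83 ± 0.51 (edgeR adjusted p = 0.0424), and 1 higher, SLC10A3 at 1.60 ± 0.30 (edgeR adjusted p = 0.0102). The other two were not called. SLC10A3 had 0.681, 1.03 and 0.701 CPM in saline and 2.25, 2.09 and 2.52 CPM in OTV animals. Of 14 PRSS proteases 2 were lower, PRSS54 at -2.68 ± 0.33 (edgeR adjusted p = 0.00254) and PRSS51 at -2.77 ± 0.58 (edgeR adjusted p = 0.0149). PRSS16, named after its value was seen, was higher at 1.74 ± 0.46 (edgeR adjusted p = 0.0359). PRSS54 had 11.4, 10.8 and 12 CPM in saline, 9.86, 7.06 and 15.6 in ASO and 2.19, 1.60 and 1.10 CPM in OTV animals. Its saline and ASO animals overlapped, and the OTV animals lay below both. Of 12 ASB genes 2 were lower, ASB16 at -1.46 ± 0.30 (edgeR adjusted p = 0.0137) and ASB18 at -2.07 ± 0.46 (edgeR adjusted p = 0.0185). None of 6 Ras exchange factors was called by edgeR, the nearest being RASGRP4 at -1.10 ± 0.36 (edgeR adjusted p = 0.072) and RASGRF2 at 0.97 ± 0.56 (edgeR adjusted p = 0.274).

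For each member the genes of most similar pattern were sought over 36 sums, 9 animals by 4 cell types, among 11590 genes with a symbol and a mean of at least 1 CPM. Features without a symbol were left out, and 14893 of the 29128 features have one. The sums share animals and include the contrast that chose the members, so the Pearson r of log2(CPM + 1) is a description. RASGRP1 was most like GAPDHS (0.935), IRGC (0.932) and RPS6 (0.916), SLC16A4 like DMAC2 (0.928), EPHB4 (0.910) and ALOX12 (0.906), and TNP2 like GOLT1B (0.932), REEP5 (0.913) and SLC13A4 (0.895). PRSS48 was most like BTD (0.922), CASD1 (0.910) and ACSM4 (0.891), and ASB14 like DNAJA1 (0.948), FGL1 (0.933) and ACADS (0.925). SLC10A1 was most like RNF212B (0.941), MRPS27 (0.934) and DNAJA1 (0.928), KRT23 like DMAC2 (0.871), TMCO1 (0.865) and KRT20 (0.861), and KRT20 like NKIRAS1 (0.921), EPHB4 (0.875) and DMAC2 (0.874). Among the members themselves, r ran from 0.155 between PRSS48 and KRT20 to 0.914 between ASB14 and SLC10A1.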

How the data were processed

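Per the labels, nuclei from frozen thalamus of 9 animals were sorted by DAPI into 10x Genomics reactions. The authors deposited raw UMI counts per nucleus, made with Cell Ranger 6.1.2 and Seurat 4 per the submitters' processing notes, with a cell type, a cluster and a doublet score for each nucleus. The deposited score was not used, and no further doublets were removed. The notes name a human build while the features carry cynomolgus identifiers, so the reference behind the counts is not settled. UMI counts per animal, 19981249 to 98850459 in all, set the counting precision. Intervals cover counting error only.

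For each animal, counts were added up over all nuclei and within types. edgeR 4.0.16 in R 4.3.3 was fitted over the 9 animals with TMM factors, filterByExpr and robust quasi-likelihood tests, adjusting by Benjamini-Hochberg over all genes of a fit. Called means adjusted p under 0.05. The SE of an edgeR log2 fold change was back-calculated as its absolute value over the square root of the test's F statistic. It is approximate and need not match the p exactly. Neurons, under 20 nuclei in 2 ASO animals, were fitted all the same. On simulated counts, 97.5% of 200 genes changed 4-fold were recovered for OTV against saline over all nuclei, among 21711 genes, and 7.14% of the calls were false. The simulation gave every gene the same spread and every animal the same cell make-up, and left the sparsest genes unchanged. Its rates may therefore not hold for the real counts. Nuclei were thinned by random draws without replacement. Alternatives were DESeq2 1.42.0, its size factors, no filter, the compared animals alone, equal totals, thinned nuclei, other depths and leaving out each animal.

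Named are the 8 members, their neighbours, up to 2 relatives per family with the smallest adjusted p and the 3 genes most like each member, plus genes marked in the text as singled out after their values were seen. Members, lists and tests were chosen with earlier results of these data known.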

Additional observations from a re-analysis of the deposited data

How the results depend on the processing

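OTV against saline and OTV against ASO over all nuclei gave 8 of 8 calls in all 15 alternatives, and in oligodendrocytes 6 to 8. The choice of the members fixed the direction of these counts, which say nothing about stability. Some lower counts elsewhere came with fewer members tested, and others with members tested and no longer called. With nuclei thinned to 1000 UMIs, calls against saline were 4 of 4 in OPCs, 2 of 2 in myeloid nuclei, 2 of 3 in astrocytes and 0 of 1 in neurons, and against ASO 4 of 4, 2 of 2, 2 of 3 and 0 of 1. With sums thinned to equal totals they were 2 of 2, 3 of 6 and 0 of 1 against saline, and 2 of 2, 5 of 6 and 0 of 1 against ASO, in myeloid nuclei, astrocytes and neurons. With the 6 compared animals alone, they were 4 of 5 in myeloid nuclei and 2 of 4 in astrocytes against saline, and 5 of 6 in astrocytes and 0 of 2 in neurons against ASO. Leaving out 1 animal gave 4 to 7 calls in myeloid nuclei, 3 to 7 in astrocytes and 0 to 2 in neurons against saline. Against ASO it gave 5 to 7 in myeloid nuclei, 4 to 8 in astrocytes and 0 to 3 in neurons. The causes of these leave-one-out changes were not tested.

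In ASO against saline, the DESeq2 Wald test called 1 member over all nuclei and 2 in oligodendrocytes, where edgeR called 0. Log2 values near 0 changed sign over all nuclei. SLC16A4 was at 0.00 with DESeq2 size factors and in the Wald test, 0.01 without a filter and 0.03 with thinned nuclei, and TNP2 at 0.00 with size factors, without a filter and at equal totals. Leaving out 1 animal moved RASGRP1 between -0.14 and 0.35, SLC16A4 between -0.11 and 0.12, TNP2 between -0.10 and 0.11 and KRT20 between -0.46 and 0.11.

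With thinned nuclei 0 of 17 neighbours and 4 of 37 relatives were called. Leaving out 1 animal gave 8 to 14 relatives. The OTV share of nuclei as a percent of the saline share was 9.60% for SLC10A1 at 500 UMIs and 11.3% at 2000, and 21.4% for KRT20 at 500. Few UMIs of SLC10A1, KRT23 and KRT20 in OTV nuclei limit the precision of their ratios, and members too sparse for a setting gave no value there. No paired analysis was possible because the labels carry no replicate numbers that link animals across groups.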
